A study of Mus musculus with 10 samples.

Results

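The cells described here were non-cycling lymphatic capillary endothelial cells of the mouse ear skin with high *Ptx3* and low *Slc2a1*, 313 of the 1641 lymphatic endothelial cells (LECs) in 3248 wells that passed quality limits. They were chosen by a gate on the count of a gene scaled to all reads of the cell (CPM) of single cells. A well was kept with at least 50000 reads outside the spike-ins, at least 200 genes and at most 10% mitochondrial reads. A LEC had a summed CPM of *Prox1*, *Flt4* and *Mmrn1* of at least 300 and above that of the blood endothelial genes *Flt1*, *Emcn* and *Podxl*. Gated cells then had *Ptx3* of at least 100 CPM, *Slc2a1* under 100 CPM, at least as much *Lyve1* as *Mmrn2*, *Cldn11* under 300 CPM and a summed CPM of 7 cell-cycle genes (*Mki67*, *Top2a*, *Ccnb1*, *Ccnb2*, *Cdk1*, *Cdc20* and *Prc1*) under 500. The same gate was used in both genotypes, and these 18 genes were left out of every test because the gate had chosen on them.

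The cells were those of 7 mice aged 5 wk, 5 of them mutant and 2 control. Mutant mice were Pik3caH1047R;Cdh5-CreERT2 and had received 4-OHT at 3 wk of age, 2 wk before the cells were taken. *Cdh5* drives this Cre in endothelium as a whole, so blood and lymphatic cells alike could carry the activated PI3K. Of the controls, the first was a C57BL/6J animal without treatment, whereas the second was a littermate lacking Cre that had also received 4-OHT. Both genotypes were kept on a C57BL/6J background per the study's methods. The third control of the study was not analysed here. Cells had been sorted into 384-well plates for Smart-Seq2, with 2 plates each for mutants 3 and 5 and 1 for each other mouse. The plate numbers formed 2 series, and mutants 1–4 were in one, mutant 5 and both controls in the other, so genotype and series cannot be told apart except through mutant 5. Females were control 1 and mutants 3–5, the remaining mice males, as read from *Xist* and genes of the Y chromosome. Plates held 99738886–151102969 reads, and no pair of kept wells had identical counts.

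Lymphatic capillaries are the blind-ended first segment of the lymphatic tree, where fluid, lipids and immune cells enter through loosely joined, *Lyve1*-rich endothelium. Pentraxin 3, the product of *Ptx3*, is a secreted pattern recognition molecule that binds microbes and complement proteins and is made by many cells during inflammation. PI3K acts below growth factor receptors such as VEGFR3, encoded by *Flt4*, and the H1047R change makes its catalytic subunit overactive.

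*Ptx3* lies at chr3:66219910-66225805 on the plus strand (GRCm38, GENCODE vM21), and its RefSeq transcript starts slightly upstream, at position 66219887. *Ptx3* is a well-known target of the inflammatory factor NF-kappaB, so the bases around this start are shown for the gene that defines the cells. The 30 bases at chr3:66219866-66219895 (GRCm38.p6, plus strand, 5′ to 3′) are printed with a match to the 10-base NF-kappaB consensus in capitals, from position -1 to 9 around the start:
Ptx3: aaccccctcccccaaatccaGGGGAACTCC
On the other strand, 1 match to this consensus or to a FOXO element, the other pattern searched, was counted in the promoter window. Its position was not recorded. Among all RefSeq promoter windows, 250 bases before to 50 bases after a start, 5.14% held the consensus on either strand (1388 of 27025). Of the genes found below to be higher in gated cells of mutant mice, 77 had a window and 7 of these held it (9.09%), against 8 of 133 lower genes (6.02%) and 6.22% of all tested genes. A match of letters is a description and says nothing of binding.

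*Ptx3* itself, the gene of the gate, ran from 101.5 to 4508 CPM in the 313 cells, with quartiles of 344, 608 and 1185. The median per mouse was 407 and 518 CPM in controls 1 and 2 and 1022, 607, 700, 578 and 591 CPM in mutants 1–5. At least 1000 CPM was reached by 99 cells, 8 of them from control mice. Few cells lay close to the limit: 5 gated cells had 100 to under 120 CPM, 6 cells that passed all other limits had 80 to under 100, and the nearest value below the limit was 96.6. *Slc2a1*, which encodes the glucose transporter GLUT1, had no read in 113 gated cells, 1 gated cell lay between 80 and 100 CPM, and the nearest cell above the limit had 101.1. These values describe the choice of cells and test nothing.

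The gate was not equally filled. It took 10 of 183 LECs in control 1, a share of 5.46% (95% Wilson interval 2.99–9.77), and 31 of 175 in control 2, or 17.7% (12.8–24.0). In mutants 1–5 it took 32, 38, 71, 53 and 78 cells, or 17.4, 20.3, 19.6, 29.1 and 21.3% of LECs (mean 21.5 ± 4.48 SD). The 5 mutant shares overlapped with control 2 and lay above control 1. Mutant and control means lay 9.94 percentage points apart (two-sided exact permutation p 0.190, where 0.0952 is the smallest that 5 and 2 mice allow), or 3.81 points without control 1 and 16.1 without control 2. As a share of non-cycling LECs the difference was 12.7 points, with the smallest possible p. Mutant 5, on plates of the controls' series, exceeded the control mean by 9.66 points. Plates of one mouse gave close shares, 19.5 and 19.7% in mutant 3 and 18.8 and 23.9% in mutant 5. Of the blood endothelial cells (BECs), at most 0.546% per mouse had *Ptx3* of at least 100 CPM. The intervals cover the counting of cells only and leave out the spread between mice and plates.

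The gate did not use 4 of the 5 named markers of the cells: *Nrp2* (chr1:62703285-62818695), a co-receptor for VEGF-C and semaphorins, *Olfml2a* (chr2:38931978-38963753), a secreted olfactomedin-family protein, *Mrc1* (chr2:14229392-14332057), the mannose receptor, and *Npnt* (chr3:132881745-132950291), a basement membrane ligand of integrins. They were proposed with results of these data known, so they show how the cells look and are not independent evidence. Reads were summed per mouse over the gated cells and over matched capillary LECs, the 578 cells (186 control, 392 mutant) that passed every limit but had *Ptx3* under 100 CPM. Levels are plain CPM of these sums and are not scaled to transcript length, so genes are not compared with each other. Fold changes come from one edgeR fit over both genotypes with the mouse as a block, after TMM scaling.

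*Npnt* stood at 719, 775, 979, 1033 and 667 CPM in gated cells of mutants 1–5 and at 48.8, 91.6, 96.5, 224 and 171 CPM in their matched cells. Every mutant mouse was higher in gated cells and the ranges did not overlap (log2 fold change 2.88 ± 0.28 SE, adjusted p 0.00261). In control mice the levels were far lower but moved the same way. They went from 6.84 to 118 CPM in control 1 and from 2.00 to 61.0 CPM in control 2. The log2 fold change was 4.61 ± 0.48 (adjusted p 0.0188). The adjusted p passed 0.05 without control 1 and without mutant 2 (0.0616 without mutant 2). A *Npnt* read was found in 60 and 25.8% of gated cells of controls 1 and 2, against 94.1 ± 5.91% in mutant mice. In control 2, gated cells with *Ptx3* under 500 CPM had 13.5 CPM of *Npnt*, and those at 500 to under 1000 had 3.67. The 7 cells with *Ptx3* of at least 1000 CPM had 218, so the rise in control 2 rested mostly on few cells.

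*Olfml2a* stood at 1485, 1556, 1457, 1268 and 1270 CPM in gated and at 393, 395, 306, 384 and 630 CPM in matched cells of mutants 1–5. Again no gated value fell among the matched ones (log2 fold change 1.76 ± 0.24, adjusted p 0.00921). In controls 1 and 2 it stood at 876 and 425 CPM against 92.1 and 146 CPM (2.51 ± 0.40, adjusted p 0.0853).

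*Nrp2* stood at 1588, 1601, 1644, 1490 and 1061 CPM in gated and at 459, 574, 572, 458 and 476 CPM in matched cells of mutants 1–5. The gated cells were the higher ones in all 5, with mutant 5 the lowest of them (log2 fold change 1.52 ± 0.21, adjusted p 0.0102, and 0.0591 without mutant 1 and 0.0550 without mutant 4). The controls went apart, with 157 against 275 CPM in control 1 and 843 against 419 CPM in control 2 (0.22 ± 0.35, adjusted p 0.846), and the log2 value turned to -0.76 without control 2.

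*Mrc1* was the marker that separated the mutant cells least. It stood at 163, 126, 147, 185 and 55.3 CPM in gated and 87.7, 47.7, 53.7, 86.7 and 38.8 CPM in matched cells, higher in each mutant although the ranges overlapped (log2 fold change 1.06 ± 0.19, adjusted p 0.0284, and 0.0798–0.119 without any one of mutants 1–4). Control mice had more of it in gated cells, 330 and 188 CPM, against 123 and 46.8 CPM (1.83 ± 0.30, adjusted p 0.0899). After every cell was thinned to 50000 reads, 52.6 ± 11.7% of gated mutant cells had an *Mrc1* read (67.7 ± 7.53% unthinned), against 3.80 ± 1.45% of BECs, and 70.6% against 10.1% in control mice. Median depths before thinning were 314878–499198 reads in gated cells and 187907–329994 in BECs. At least 3 of the 4 markers were found in 87.3 ± 3.77% of thinned gated cells in mutant mice and in 60.0 and 38.7% of those of controls 1 and 2. Matched cells reached 43.9 ± 19.2% in mutant mice and BECs 38.4 ± 9.51%, so matched mutant cells and BECs were not kept apart by detection alone. Gated mutant cells, at 83.0–91.5% per mouse, did not overlap with BECs, at 28.7–53.6%. In BECs of control mice it was 5.69%.

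**Figure D1:**
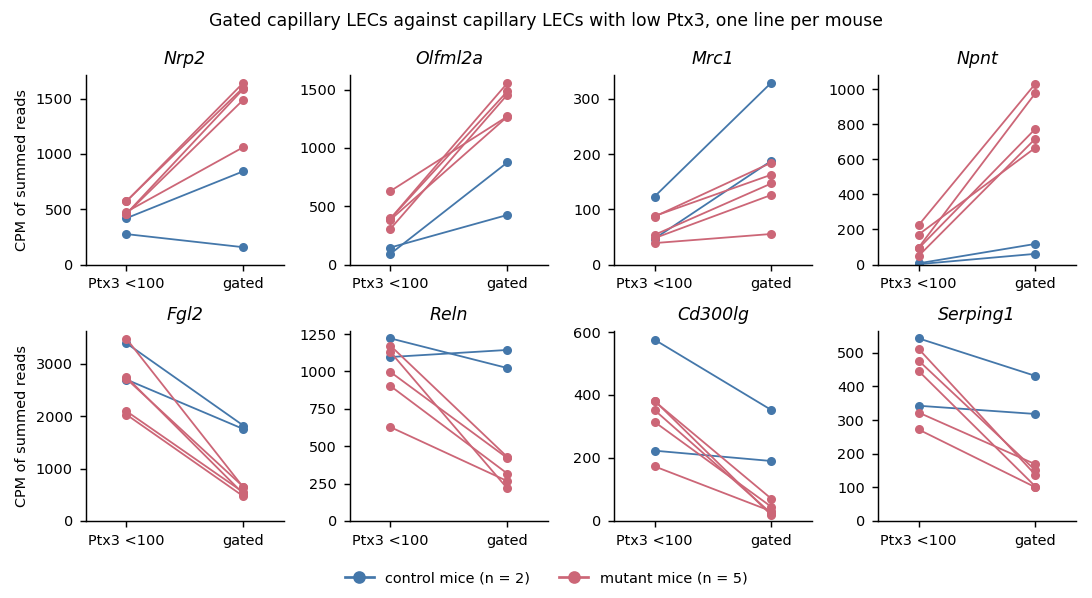
CPM of summed reads of 8 genes in matched capillary LECs with *Ptx3* under 100 CPM and in gated cells, one line per mouse, control mice in blue and mutant mice in red. The 4 markers rise in every mutant mouse, and *Fgl2*, *Reln*, *Cd300lg* and *Serping1* drop steeply in every mutant mouse, while *Reln* stays between 1022 and 1221 CPM in the control mice.

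Within mutant mice, gated cells had more *Npnt*, *Mmp2*, *Mmp14*, *Adam12*, *Cotl1*, *Cd34* and *L1cam* than matched cells and less *Fgl2*, *Efna1*, *Tek*, *Reln* and *Cd300lg*, and each of these 12 calls held without each mouse in turn. Of 17427 genes tested, edgeR called 101 higher (0.58%) and 183 lower (1.05%) in gated cells. Without any one of mutants 1–4 the total of 284 was 101–119, and it was 180 without mutant 5. DESeq2 called 1256. Gated cells were the deeper ones in 6 of 7 mice, with for example a median of 499198 against 403980 reads in mutant 5 but 334021 against 340320 in control 2, and with all cells thinned to 50000 reads edgeR called 335 genes. A call is said to be lost where its adjusted p passed 0.05 without a mouse.

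By the rule for named genes the largest rise was that of *Lrrn2*, a leucine-rich repeat membrane protein, which stood at 19.3, 29.7, 27.9, 44.1 and 20.9 CPM in gated cells and at 0.141–0.694 CPM in matched cells of mutants 1–5. No mouse came near the level of the other kind of cell (log2 fold change 6.65 ± 0.64, adjusted p 0.00261). In controls 1 and 2 it stood at 48.6 and 24.8 against 8.54 and 5.27 CPM (2.48 ± 0.81, adjusted p 0.29). *Npl*, an enzyme of sialic acid breakdown, *Lrrc26*, a potassium channel subunit, and the imprinted zinc finger gene *Peg3* followed *Npnt* in size, with log2 fold changes of 2.81, 2.58 and 2.33, but each lost its call without at least 4 of the mutant mice (adjusted p 0.0654–0.166 there). The largest falls by the same rule were those of *C5ar2*, a complement receptor, *Hhipl2*, *Steap4*, a metalloreductase, *Nr1h3*, a sterol-sensing nuclear receptor, and *Fmo2*, by 5.65, 5.56, 5.44, 5.31 and 4.78 on the log2 scale. *Fmo2* lost its call without mutant 4 only (adjusted p 0.0559) and the other 4 genes without at least 4 mutant mice (adjusted p 0.0529–0.156).

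Matrix genes went both ways, where 0.58% of all genes were called higher and 1.05% lower. Of the 29 genes of a basement membrane and matrix list, all tested, 6 rose (*Npnt*, *Olfml2a*, *Sparc*, *Sulf2*, *Fbln5* and *Eln*) and 4 fell (*Lamb1*, *Lama4*, *Col18a1* and *Fn1*), with a median log2 fold change of 0.13 against 0.00 over all genes. *Sparc*, a collagen-binding matricellular protein, stood at 1868–2072 CPM in gated and 500–1054 CPM in matched cells of mutant mice (log2 fold change 1.47 ± 0.17, adjusted p 0.0045). *Sulf2*, which trims heparan sulfate, rose from 183 ± 46.5 to 397 ± 30.9 CPM (1.13 ± 0.15, adjusted p 0.00902). The laminin chains *Lamb1* and *Lama4* fell from 555 ± 130 to 245 ± 84.3 CPM and from 676 ± 76.0 to 440 ± 80.7 CPM (-1.21 ± 0.12 and -0.65 ± 0.07, adjusted p 0.00289 and 0.00359). The calls of *Fbln5*, *Eln*, *Col18a1* and *Fn1* were lost without 3 or 4 of the mutant mice (adjusted p 0.0516–0.187). In control mice *Sparc* stood at 1073 and 631 against 337 and 240 CPM, and none of the other matrix genes but *Npnt* was called.

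Among 26 tested proteinases and inhibitors, 5 rose and 4 fell (median log2 fold change 0.60), against 0.58 and 1.05% of all genes. The gelatinase *Mmp2* stood at 704–1032 CPM in gated and 164–492 CPM in matched cells of mutant mice (log2 fold change 1.52 ± 0.18, adjusted p 0.00506), and its activator *Mmp14* at 642–1004 against 335–565 CPM (1.02 ± 0.13, adjusted p 0.00639). The metalloproteinase *Adam12* rose from 39.8 ± 13.0 to 188 ± 49.9 CPM (2.25 ± 0.20, adjusted p 0.00205). In all 3 genes the gated and matched ranges of mutant mice did not overlap. *Adam15* (1.59) and *Adam19* (1.74) rose as well but lost their calls without 3 or 4 of the mutant mice (adjusted p 0.068–0.149). Of the inhibitors, *Serpine2*, which blocks thrombin and plasminogen activators, fell from 594 ± 88.4 to 188 ± 47.2 CPM (-1.70 ± 0.19, adjusted p 0.00343). *Timp3*, an inhibitor of metalloproteinases, fell by 0.49 on the log2 scale (adjusted p 0.0102, and 0.0507 without mutant 2). *Prss23*, a serine protease, fell too but lost its call without mutant 2 or mutant 4 (adjusted p 0.0644 and 0.0539). *Adam17* (log2 fold change 0.61 ± 0.23, adjusted p 0.365) and *Adam8* (2.48 ± 1.54, adjusted p 0.669) did not pass.

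Of 45 genes that the study lists for its *Ptx3* capillary cluster, 18 rose and 1, *Prss23*, fell in gated cells of mutant mice, with a median log2 fold change of 0.59. Over all genes 0.58% rose and 1.05% fell. These mice were among those from which the study drew the list, so the count is not independent evidence. *Cotl1*, which binds actin, stood at 541, 527, 469, 439 and 373 CPM in gated and 188, 196, 149, 131 and 160 CPM in matched cells of mutants 1–5. It was the most regular of them, higher in every mouse with no overlap (log2 fold change 1.5 ± 0.12, adjusted p 0.0014), and the controls behaved alike with 360 and 327 against 69.0 and 89.8 CPM. The creatine kinase *Ckb* (1.57), the glutathione-cycle enzyme *Ggct* (2.30), *Serinc2* (1.16), the imprinted gene *Mest* (1.09), the cyclin *Ccnd1* (1.19), *S100a4* (0.75) and the lamin *Lmna* (0.56) rose with adjusted p of 0.00261–0.00693. *Aqp1*, a water channel, rose from 392 ± 149 to 836 ± 135 CPM (1.14 ± 0.19, adjusted p 0.0201, and 0.0573–0.083 without any one of mutants 2–5). In control mice it stood at 1963 and 912 against 563 and 199 CPM (2.11 ± 0.30, adjusted p 0.0853). *Itih5*, which helps to link hyaluronan, stood at 122–221 CPM in gated and 52.8–212 CPM in matched cells of mutant mice (0.45 ± 0.20, adjusted p 0.456).

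Immune genes gave 0 to 3 higher calls in each of 4 lists, where 0.58% of all genes were called higher. Of 12 tested checkpoint and costimulatory genes, 3 rose in mutant mice and none fell: *Cd276* (B7-H3), *Cd200*, whose product restrains myeloid cells, and *Cd40*. *Cd276* stood at 126, 334, 274, 314 and 193 CPM in gated and 29.6, 48.0, 28.3, 139 and 64.4 CPM in matched cells of mutants 1–5. All 5 mice were higher, although mutant 1's gated value lay below mutant 4's matched one (log2 fold change 2.17 ± 0.33, adjusted p 0.0162, and 0.0665 without mutant 1 and 0.0679 without mutant 2). *Cd200* rose from 174 ± 26.4 to 298 ± 60.9 CPM (0.76 ± 0.12, adjusted p 0.0194, and 0.0507–0.083 without any one of mutants 2–5). *Cd40* rose from 49.1 ± 16.5 to 118 ± 37.1 CPM (1.26 ± 0.25, adjusted p 0.0438, and 0.114–0.181 without any one mutant mouse). Of 20 tested scavenger and pattern receptors, *Mrc1* rose and *Colec12* fell (adjusted p 0.0502–0.103 without any one mutant mouse). *Ackr2*, which clears inflammatory chemokines, stood at 531–1276 CPM in gated and 375–598 CPM in matched cells of mutant mice (0.83 ± 0.31, adjusted p 0.337). Of 18 tested chemokines and cytokines none rose and *Il7* fell (lost without mutants 2–4, adjusted p 0.051–0.0763). The monocyte attractant *Ccl2* stood at 49.4, 82.3, 75.1, 176 and 140 CPM in gated and 5.87, 40.8, 37.3, 29.4 and 125 CPM in matched cells, higher in each mutant but with a wide spread between mice (1.54 ± 1.04, adjusted p 0.703). Of 17 tested adhesion genes *Icam2* and *L1cam* rose, *Icam2* not without any one mutant mouse (adjusted p 0.0574–0.101), and *Lgals3* did not pass (0.84 ± 0.31, adjusted p 0.332).

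Among the lists examined, genes of ordinary lymphatic capillaries had the largest share of falls, where 1.05% of all genes fell. Of 16 genes that mark the main capillary cluster of the study's control LECs, 13 fell and none rose in gated cells of mutant mice, and their median log2 fold change was -1.57 against 0.00 over all genes. The study took these markers partly from the same control mice, so the list is not independent of the samples. It found them by comparing that cluster with all others, those with high *Ptx3* included. The gate chose cells on *Ptx3*, so the count of falls is not independent evidence either. Without each mouse in turn 9 of the 13 kept their call, and *Tppp3*, *Adgrg3*, *Cavin2* and *Piezo2* lost it without 4 to 6 of the mice (adjusted p 0.0548–0.186). *Arhgdib*, *Rnase4* and *Ucp2* did not pass in either direction.

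*Fgl2*, a fibrinogen-like protein with immune and clotting roles, stood at 547, 518, 651, 641 and 470 CPM in gated and 2096, 2748, 2715, 3480 and 2031 CPM in matched cells of mutants 1–5. Each mutant fell by a wide margin with no overlap (log2 fold change -2.20 ± 0.09, adjusted p 2.89e-05). *Cd300lg*, an endothelial mucin-like receptor, stood at 17.8, 23.6, 70.1, 44.5 and 30.4 against 382, 352, 380, 315 and 173 CPM (-3.21 ± 0.33, adjusted p 0.0029). *Reln*, the secreted glycoprotein reelin, fell from 965 ± 217 to 329 ± 93.0 CPM (-1.58 ± 0.17, adjusted p 0.00317), and *Serping1*, the C1 inhibitor, from 272–512 to 99.8–168 CPM (-1.63 ± 0.16, adjusted p 0.00284). *Gpihbp1*, which carries lipoprotein lipase, *Stmn2*, *Slco2b1*, *Enpp3* and the selenium carrier *Selenop* fell by 2.02, 1.62, 1.57, 1.74 and 0.78 on the log2 scale (adjusted p 0.00205–0.00752).

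In the gated cells of control mice the same 16 genes had a median log2 fold change of -0.15, close to the -0.24 of all genes there, and none was called. The test of the difference between genotypes, given below, called 2 of the 16, *Selenop* and *Fgl2*, against 0.0459% of all genes, and 14 were not called. Gated control cells numbered only 10 and 31, so a gene without a call there is not shown to be unchanged. *Fgl2* stood at 1821 and 1756 CPM in gated against 3394 and 2701 CPM in matched cells, lower in both mice (-0.65 ± 0.14, adjusted p 0.148). *Reln* at 1022 and 1144 against 1221 and 1096 CPM and *Serping1* at 431 and 318 against 543 and 342 CPM gave log2 fold changes of 0.02 and -0.11 (adjusted p 1 and 0.912).

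**Figure D2:**
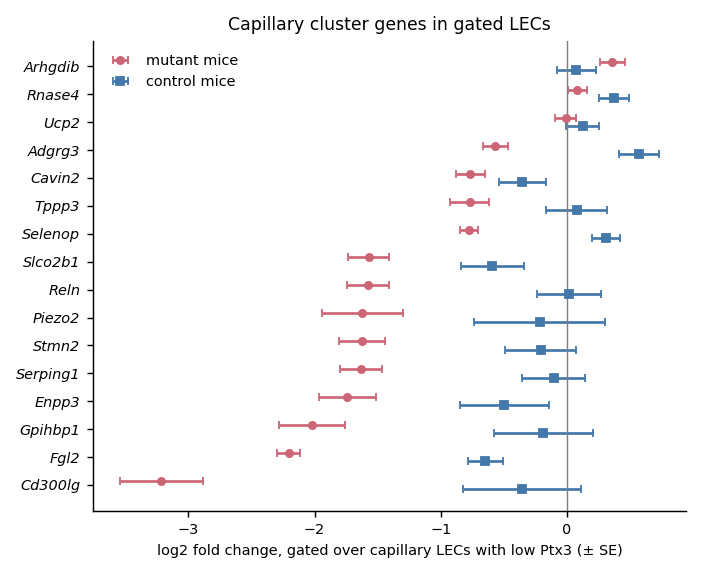
Log2 fold change of gated over matched capillary LECs (± SE, edgeR) for 16 genes that mark the main capillary cluster, mutant mice as red circles and control mice as blue squares. In mutant mice 13 of the 16 passed the test, all below 0, and the control values lie between -0.65 and 0.57 with none called. The difference between genotypes was called for *Selenop* and *Fgl2* only.

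Other lymphatic genes moved less, where 0.58% of all genes were called higher and 1.05% lower. Of 20 genes of lymphatic identity, *Itga9*, an integrin subunit of lymphatic valves, rose from 239 ± 23.7 to 456 ± 41.0 CPM in mutant mice (log2 fold change 0.92 ± 0.10, adjusted p 0.00317). In this list 6 fell, of which *Reln* and the angiopoietin receptor *Tek* kept their call without each mouse and *Tbx1*, *Thy1*, *Cd9* and *Nfatc1* did not (adjusted p 0.0591–0.135 where lost). *Tek* stood at 52.0, 112, 106, 124 and 104 CPM in gated and 284, 339, 282, 479 and 276 CPM in matched cells of mutants 1–5. The ranges lay well apart (-1.77 ± 0.19, adjusted p 0.00317). Of 33 growth factor and guidance receptors, *Nrp2* and *Ramp2* rose and *Tek* and *Robo4* fell, and the calls of *Ramp2* and *Robo4* were lost without 5 and 3 of the mutant mice (adjusted p 0.0554–0.175). Of 15 integrin genes *Itga9* and *Itgb1* rose, *Itgb1* not without any one mutant mouse (adjusted p 0.0507–0.151). Of 29 tested ligands, *Pgf*, a VEGF family member, rose and *Pdgfb* and *Reln* fell, and the calls of *Pgf* and *Pdgfb* were lost without any one of mutants 2–5 (adjusted p 0.0546–0.165). The ephrin *Efna1*, on none of these lists, fell from 307 ± 72.9 to 92.3 ± 20.7 CPM (-1.74 ± 0.11, adjusted p 0.000699). Of 24 collecting vessel and valve genes 3 rose (*Itga9*, *Sparc* and *Fbln2*) and 3 fell (*Gja1*, *Clca3a1* and *Bgn*), and *Fbln2*, *Gja1* and *Bgn* lost their calls without at least mutant 2 (adjusted p 0.0507–0.161).

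Lists of PI3K output and metabolism gave 0 to 3 calls each in gated against matched mutant cells, where 0.58% of all genes were called higher and 1.05% lower. Of 25 glycolysis and hypoxia genes *Gapdh* and *Pkm* rose and *Ndrg1* fell, and of 22 tested FOXO-responsive genes *Txnip* and *Pink1* fell. Of 26 PI3K and ATF4 genes the amino acid transporter chain *Slc3a2* fell from 389 ± 82.5 to 203 ± 34.6 CPM (log2 fold change -0.94 ± 0.11, adjusted p 0.00391) and *Trib3* fell. None of 21 sterol and fatty acid synthesis genes was called, with a median of 0.67 and 17 of 21 positive. Of 32 replication and other cell-cycle genes only *Ccnd1* was called (286 ± 24.4 to 666 ± 112 CPM). The gate had removed cells with high cell-cycle sums, yet 260 of the 313 gated cells (83.1%) had at least 1 read of its 7 cycling genes. Of 26 tested immediate-early genes, which tissue dissociation also induces, none rose and *Ccn1* and *Ccn2* fell. The calls of *Gapdh*, *Pkm*, *Ndrg1*, *Pink1*, *Trib3*, *Ccn1* and *Ccn2* were lost without at least 1 mutant mouse (adjusted p 0.0507–0.183).

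In control mice, gated against matched cells gave 7 genes higher (0.0402% of 17427) and 2 lower (0.0115%), with 2105 at an unadjusted p under 0.05. They rest on few cells, 10 in control 1 and 31 in control 2, and without control 1 only *L1cam* was called while without control 2 it was 715 genes, 115 higher and 600 lower. The 7 higher genes were *Npnt*, *Adam12* (2.96), the NF-kappaB inhibitor *Nfkbie* (2.85), *Mest* (2.30), *Cotl1* (2.24), *Gpnmb* (2.01) and *Serinc2* (1.68), and their adjusted p of 0.00874–0.0222 (0.0257 for *Serinc2*) became 0.103–0.182 without control 1. All but *Mest* and *Cotl1* also lost their call without at least 1 mutant mouse (adjusted p 0.0508–0.0749). *Nfkbie* stood at 113 and 64.9 CPM in gated against 14.3 and 11.5 CPM in matched control cells, and at 268 ± 73.6 against 142 ± 53.0 CPM in mutant mice (0.92 ± 0.17, adjusted p 0.0341, and 0.0876–0.156 without any one of mutants 1, 3, 4 or 5). *Kcnk5*, a potassium channel, was lower in both genotypes, at 1.45 and 0.549 against 83.4 and 61.7 CPM in controls (-6.23 ± 0.75, adjusted p 0.0308) and 11.2 ± 6.15 against 91.9 ± 40.4 CPM in mutants (-3.06 ± 0.39, adjusted p 0.00681). Its control call was also lost without any one of mutants 1, 2, 3 or 5. Of the 45 listed genes of the study's *Ptx3* cluster 44 had a positive log2 fold change in control mice and 4 were called. The list marks a cluster with high *Ptx3* and the cells were chosen on *Ptx3*, so this count is not independent evidence either. The median of all genes in this contrast was -0.24 after TMM scaling and -0.13 with DESeq2.

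A test of the difference between the genotypes called 8 of 17427 genes (0.0459%), 3 up and 5 down, and the balance depended on the mice. Without control 1 there was 1 call, up, without control 2 there were 432 up and 53 down, and without any one mutant mouse 1–3 up and 0 down. DESeq2 called 631 up and 389 down. *L1cam*, a cell adhesion molecule (chrX:73853778-73896105), went opposite ways. It stood at 190, 251, 255, 185 and 260 CPM in gated and 55.3, 69.7, 83.3, 52.4 and 105 CPM in matched cells of mutants 1–5, but at 2.03 and 0.366 CPM in gated and 48.1 and 17.4 CPM in matched cells of the controls. The gated control levels rest on few reads in 10 and 31 cells. After thinning, an *L1cam* read was found in 20 and 3.23% of gated and 20.2 and 6.49% of matched cells of controls 1 and 2, so detection differed little there. The rise in mutant mice (1.66 ± 0.17, adjusted p 0.00281) and the fall in control mice (-4.90 ± 0.35, adjusted p 0.00352) differed by 6.56 ± 0.39 (adjusted p 0.000718), and this call held without each mouse. *Cd34*, a sialomucin of blood vessels (chr1:194938819-194961279), stood at 643, 667, 691, 761 and 707 CPM in gated and 155, 209, 122, 256 and 216 CPM in matched mutant cells, and at 20.5 and 8.78 against 59.7 and 19.6 CPM in controls. The mutant rise (1.89 ± 0.16, adjusted p 0.00176) exceeded the control value by 3.12 ± 0.30 (adjusted p 0.0228). By detection after thinning the controls went apart, with a *Cd34* read in 90 and 22.6% of gated and 68.8 and 40.3% of matched cells of controls 1 and 2. *Fgl2*, *Efna1*, *Gpm6a*, *Selenop* and *Ltbp4* fell in mutant mice by 2.20, 1.74, 1.43, 0.78 and 0.85 on the log2 scale, and were lower there than in control mice by 1.56, 1.78, 1.54, 1.09 and 0.99 (adjusted p 0.0317–0.0369). The eighth call, *1500009L16Rik* (7.61 ± 0.91, adjusted p 0.0369), lies outside the rule for named genes and is named here after its value was seen. Of the other 7, all but *L1cam* lost their call without control 1 (adjusted p 0.173–0.217) and without most single mutant mice.

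*Cd34* and *L1cam* are also genes of blood endothelium and of other cells, and no doublet caller was run. The 19 BEC markers of a list summed to 1265–1619 CPM in gated and 1354–1707 CPM in matched cells of mutant mice, and of them *Cd34* rose while *Cd300lg*, *Tspan7* and *Hey1* fell, *Hey1* not without mutants 1, 2 or 5 (adjusted p 0.0802–0.114). *Flt1* stood at 1.36–4.99 CPM in gated mutant cells. *Emcn* averaged 207 ± 35.8 CPM in gated and 450 ± 28.9 CPM in matched cells of mutant mice, and *Podxl* 209 ± 55.7 and 290 ± 69.3 CPM. A summed CPM of *Flt1*, *Emcn* and *Podxl* of at least 300 was found in 166 of 313 gated cells, and in 147 of the 272 from mutant mice. When LECs had to exceed that sum 5 times, edgeR called 180 genes in place of 284 in mutant mice. Markers of keratinocytes, fibroblasts, mural, immune and Schwann cells gave no call in this contrast, and their part in the results was not tested otherwise.

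Capillary LECs were also divided by their *Ptx3* level, as a description in which cells of one mouse share their library. The classes held 114, 278, 97, 84 and 91 mutant cells at 0, above 0 to under 100, 100 to under 500, 500 to under 1000 and at least 1000 CPM, and 101, 85, 22, 11 and 8 control cells. In mutant mice *Npnt* averaged 51.0, 169, 532, 970 and 1094 CPM over these classes and *Cd34* 167, 195, 556, 693 and 834 CPM. *Fgl2* went the other way, from 3109 over 2413, 860 and 611 down to 196 CPM, as did *Cd300lg* from 339 to 8.68 CPM and *Reln* from 1096 to 195 CPM. The first class has 4 mutant mice, since mutant 1 had 2 such cells, and the others 5. In CPM, the largest steps of *Cd34*, *Fgl2* and *Cd300lg* lay between the second and the third class, at the limit of the gate, although as a ratio *Fgl2* fell most between the last 2 classes, and *Fgl2* and *Reln* went on falling within it. In control 2 *Fgl2* was at 2928, 2520, 1967, 2195 and 867 CPM over the 5 classes, *Reln* stayed between 952 and 1478 CPM and *Cd34* dropped from 31.2 to 7.13 CPM. Control 1 had enough cells for the first 3 classes only.

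**Figure D3:**
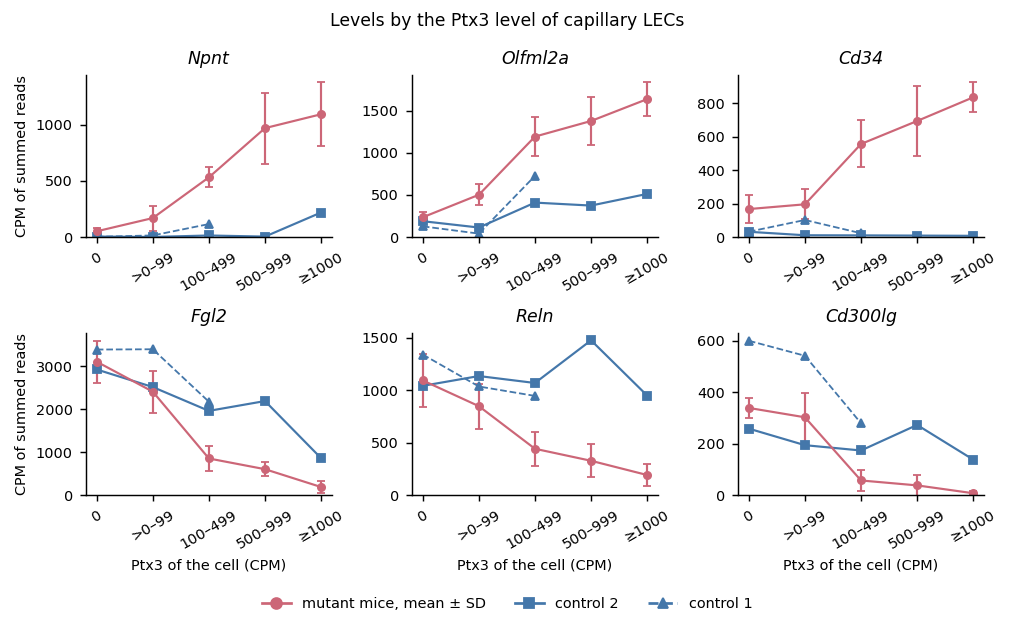
CPM of summed reads of 6 genes in capillary LECs with *Slc2a1* under 100 CPM, divided by the cell's own *Ptx3* level (horizontal axis), as mean ± SD of mutant mice (red) and as single values of control 1 (triangles) and control 2 (squares), each a sum of at least 5 cells. *Npnt*, *Olfml2a* and *Cd34* climb and *Fgl2*, *Reln* and *Cd300lg* drop with *Ptx3* in mutant mice, while *Cd34* stays at or below 102 CPM in both controls.

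Against all 1097 LECs with *Ptx3* under 100 CPM, which also hold collecting vessel, valve and cycling cells, gated cells of mutant mice had 143 of 19205 genes higher (0.745%) and 228 lower (1.19%). Both sets of comparison cells share cells, so the results were not compared as independent: 83 higher genes were in both (82.2% of the calls against matched cells, 58.0% of these) and 123 lower (67.2 and 53.9%). This contrast added *Stab2*, a hyaluronan scavenger receptor, at 54.2, 35.3, 69.1, 60.0 and 53.0 against 3.92, 1.60, 6.32, 4.43 and 36.0 CPM in mutants 1–5, higher in each mouse with mutant 5 the least changed (log2 fold change 3.34 ± 0.59, adjusted p 0.0315). *Itih5* passed here (0.84 ± 0.14, adjusted p 0.0296), as did *Mrc1* (1.52), *Aqp1* (1.46) and *Cd276* (2.02), but each of these 5 calls was lost without mutant 3 and most without others (adjusted p 0.0503–0.13). The total of 371 fell to 28–66 without any one of mutants 1–4, was 209 without mutant 5, and rose to 606 and 608 without control 1 or 2.

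The cells most like the gated ones, LECs that passed every limit but had *Slc2a1* of at least 100 CPM, numbered 93 (84 mutant, 9 control). In mutants 3, 4 and 5, which had at least 5 such cells, edgeR called 0 of 14080 genes (0.0%), with 382 at an unadjusted p under 0.05, and DESeq2 called 23. *Npnt* stood at 718, 714 and 760 CPM in these cells and *Olfml2a* at 1535, 1570 and 1545 CPM, values close to those of the gated cells (log2 differences gated minus *Slc2a1*-high of 0.24 ± 0.16 and -0.25 ± 0.10, adjusted p 0.996 for both). With 3 mice this does not show that the cells were alike. *Fgl2* at 522, 47.5 and 377 CPM varied more among them than among gated cells, but these sums held only 23, 5 and 49 cells.

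Between genotypes, the gated cells of mutant mice had more *Cd34*, *L1cam*, *Thbd*, *Slco2a1* and *Npnt* and less *Fgl2*, *Adgrg3*, *Efna1* and *Cd36* than those of control mice. *Npnt* differed outside the gate too. After thinning, a *Npnt* read was found in 44.7 ± 16.3% of matched cells and 50.7 ± 6.88% of BECs in mutant mice, against means of 4.78 and 11.4% in control mice. Matched cells and BECs were not themselves tested between genotypes. Of 14897 genes tested, edgeR called 231 higher (1.55%) and 166 lower (1.11%) in gated cells of mutant against control mice. The total of 397 became 56–110 without any one mutant mouse and 2542 without control 2. With 10 gated cells per mouse it was 49, and with the plate series as a block, which rests on mutant 5, it was 20, of which 19 were higher and 1 lower. In each of the 397 genes mutant 5, which shares the controls' plate series, lay outside both controls on the same side as the other mutants, and no mutant overlapped with a control in 231 higher and 165 lower genes, an outcome that the test itself favours.

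*Cd34* stood at 643–761 CPM in gated cells of the 5 mutant mice against 20.5 and 8.78 CPM in controls (log2 fold change 5.53 ± 0.40, adjusted p 0.00067), and *L1cam* at 185–260 against 2.03 and 0.366 CPM (7.89 ± 0.67, adjusted p 0.00135). *Thbd*, the thrombin receptor thrombomodulin, stood at 892, 911, 1008, 647 and 1018 against 56.1 and 103 CPM (3.45 ± 0.30, adjusted p 0.00147). *Slco2a1*, a prostaglandin transporter, stood at 389, 206, 216, 157 and 269 against 7.52 and 4.21 CPM (5.38 ± 0.52, adjusted p 0.00181). No mutant value of these 4 genes came near a control value, and each call held without each mouse, with 10 cells per mouse and with the plate series as a block (adjusted p 0.00552–0.0163 in the last). *Npnt* (3.16 ± 0.35, adjusted p 0.00409), elastin (*Eln*, 1.67 ± 0.22, adjusted p 0.0102) and *Ier5* (5.69 ± 0.62, adjusted p 0.00379) were higher and kept their calls without each mouse. With the plate series as a block only *Ier5* of these 3 kept its call (adjusted p 0.0542 for *Npnt* and 0.0777 for *Eln*), and with 10 cells per mouse only *Eln* (adjusted p 0.0684 for *Npnt* and 0.137 for *Ier5*). The neuropeptide precursor *Nts* (4.18 ± 0.67, adjusted p 0.0201) and *Adam15* (3.74 ± 0.58, adjusted p 0.019) were called too, but not without mutant 3 (adjusted p 0.0513 and 0.051), nor *Nts* without control 1 or mutant 4 (adjusted p 0.0614 and 0.0539). *Thbd*, *Slco2a1*, *Nts*, *Sparc* and *Lama5* made up the 5 of 24 collecting vessel and valve genes that were higher, and *Gja1* was the 1 that was lower. Over all genes 1.55% were higher and 1.11% lower. *Sparc*, *Lama5* and *Gja1* lost their calls without at least 4 mice (adjusted p 0.0509–0.0852).

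No read in either control was found for 32 of the higher genes, so their folds are lower bounds, taken against 3 reads over both controls. *Lrrc26* was at 78.1–107 CPM in mutant mice and at least 419-fold higher, the separase gene *Espl1* at least 288-fold, *Sapcd1* at least 205-fold, *Grin1os* at least 195-fold and *Stx11* at least 146-fold. *Lrrc26* and *Grin1os* are neighbours (chr2:25289915-25291180 and chr2:25291220-25298925), and *Sapcd1* and *Grin1os* share 53.2 and 45.2% of their exon bases with *Vwa7* and *Grin1*, so reads of such pairs could be counted to either.

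Lower in gated cells of mutant mice were *Fgl2* (-1.72 ± 0.16, adjusted p 0.00167), the adhesion receptor *Adgrg3* at 235, 223, 262, 202 and 291 against 777 and 949 CPM (-1.89 ± 0.17, adjusted p 0.00167), *Efna1* at 68.8–125 against 287 and 455 CPM (-2.05 ± 0.27, adjusted p 0.0102) and the fatty acid receptor *Cd36* at 4.33–12.2 against 140 and 79.7 CPM (-3.64 ± 0.51, adjusted p 0.0139). The groups lay apart in all 4 and these calls held without each mouse. With the plate series as a block *Fgl2* alone kept its call (adjusted p 0.0214, and 0.0974, 0.102 and 0.334 for *Adgrg3*, *Efna1* and *Cd36*), and with 10 cells per mouse *Adgrg3* alone did (adjusted p 0.00665). Of the 16 capillary cluster genes 9 were lower and none higher (median -1.54 against 0.08 over all genes), of which *Tppp3*, *Gpihbp1*, *Serping1*, *Selenop*, *Cd300lg* and *Stmn2* lost their call without control 1 (adjusted p 0.052–0.0983) and *Reln* without mutant 3 (0.0506). Of the 45 listed genes of the *Ptx3* cluster 5 were higher and 5 lower. For both lists the shares over all genes were 1.55% higher and 1.11% lower. *Igfbp4* (1808 and 1285 CPM in controls, 468 ± 129 in mutants), the lymphatic scavenger receptor *Stab1* (1739 and 2056, 815 ± 193) and *Gmfg* (282 and 193, 43.1 ± 15.1) were lower by 1.79, 1.28 and 2.53 on the log2 scale, with adjusted p of 0.0164–0.019, and 0.0509–0.0613 without mutant 3 and, by gene, without mutant 2 or control 1. *Angpt2*, a ligand of the receptor *Tek*, was lower by 2.19 (81.6 ± 24.3 CPM against 456 and 254, adjusted p 0.0201). This call was lost without control 1 and without any one of mutants 3–5 (adjusted p 0.0505–0.0558 without a mutant).

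**Figure D4:**
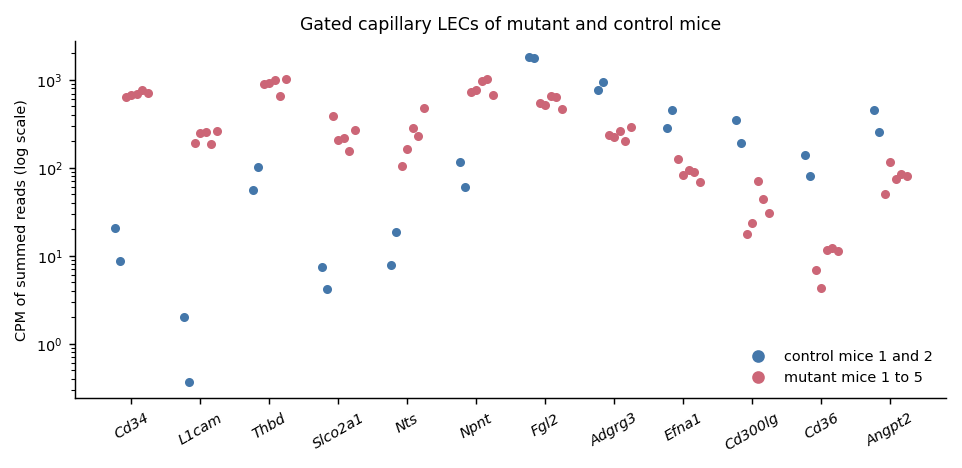
CPM of summed reads (log scale) of 12 genes in gated cells, 1 point per mouse, control mice in blue and mutant mice in red. In each of the 12 genes all 5 mutant mice lie on one side of both controls, above them for the first 6 genes and below them for the last 6.

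Of the inflammation-related genes that the study names, *L1cam* was called higher in gated cells of mutant mice, *Mmp14* passed narrowly and *Ccl2*, *Ccl7*, *Ackr2*, *Adam17*, *Adam8*, *Mmp2* and *Lgals3* did not pass. The study compared clusters of single cells at other limits, with control cells chosen by high *Ptx3*, whereas the mouse is the replicate here. Its other evidence for *Ccl2* included protein staining, skin lysate ELISA and qRT-PCR of cultured LECs. The study also reported less lymphatic vessel growth under an antibody against CCL2. All of this came from *Vegfr3-CreERT2* mice. *Ccl2* stood at 0.289 and 23.4 CPM in gated cells of controls 1 and 2 and at 49.4–176 CPM in mutant mice (log2 fold change 3.07 ± 1.09, adjusted p 0.157). All 5 mutants lay above both controls. *Ccl7* overlapped, with 0.289 and 25.5 CPM in controls and 0.713–35.1 CPM in mutants (0.31 ± 1.45, adjusted p 0.922). *Ackr2* stood at 229 and 486 against 531–1276 CPM (1.27 ± 0.36, adjusted p 0.095), *Adam17* at 60.2 and 65.5 against 118–140 CPM (1.03 ± 0.26, adjusted p 0.0736) and *Lgals3* at 56.7 and 58.0 against 59.5–208 CPM (1.11 ± 0.47, adjusted p 0.216), each without overlap. *Adam8* had no read in either control and 1.26–36.5 CPM in mutants, at least 71.2-fold higher over the pooled cells (adjusted p 0.0582). *Mmp14* had the weaker of both calls (642–1004 against 488 and 391 CPM, 0.91 ± 0.20, adjusted p 0.0477, and 0.056–0.116 without control 2 or any one mutant mouse).

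Markers of other cells moved with genotype in the gated cells, where 1.55% of all genes were called higher and 1.11% lower. The 10 fibroblast markers summed to 1183 and 305 CPM in controls 1 and 2 and to 13.8–283 CPM in mutant mice, and 2 of the 7 tested (*Lum* and *Dpt*) were called lower in mutants. The 10 mural markers summed to 164 and 502 against 17.9–122 CPM, with *Rgs5* and *Notch3* called lower, and the 8 Schwann cell markers to 61.0 and 96.6 against 2.93–17.5 CPM, with *Mbp* called lower. The 16 immune markers summed to 44.8 and 2.01 against 33.5–105 CPM, with *Cd68* called higher (46.7, 20.6, 15.9, 37.6 and 31.1 CPM in mutants 1–5 and 1 read over both controls) and *S100a9* at 0 in all mice. Cells with the immune surface proteins CD45 or CD11b had been gated out in the sort. Immediate-early genes summed to 5334 and 4266 against 2172–4291 CPM, with *Egr1*, *Junb* and *Ccn2* called lower and *Ier5* higher. Of the genes with the largest falls, *Myoc*, *Penk* and *Lum* stood at 524, 161 and 157 CPM in the 10 cells of control 1 but at 0.914, 2.47 and 3.02 CPM in control 2, and without control 1 their adjusted p was 0.592, 0.299 and 0.38. *Cnmd* had no read in any mutant and stood at 134 and 8.50 CPM in controls (adjusted p 0.0267, and 0.0783 without control 1). Of the markers named in this paragraph only *Cd68* and *Ier5* kept their call without each mouse, and the others lost it without at least 3 of the mice (adjusted p 0.0513–0.38). Keratinocyte markers summed to 128 and 118 CPM in controls and 22.7–672 CPM in mutants, with none called. The part that these markers have in the differences between genotypes was not tested.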

How the data were processed

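The authors aligned Smart-Seq2 reads with TopHat2 2.1.1 to GRCm38 plus the chicken PIK3CA sequence, removed duplicates with SAMtools 0.1.18 and counted reads per gene with featureCounts. R 3.5.1 and Seurat 3.1.1 are also named in the submitters' processing notes. The annotation version is not given in the sources used here. The deposited values were raw read counts per gene for 3456 wells on 9 plates, with 46517 gene rows (45946 matched to a GENCODE vM21 symbol) and 92 spike-in rows, which were left out of library sizes. No doublet caller was run.

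The members, gene lists and named genes were chosen with earlier results of these data known. Counts of gated and comparison cells were summed per mouse (at least 5 cells a sum), with the plates of a mouse pooled. edgeR 4.0.16 (R 4.3.3; filterByExpr, TMM, quasi-likelihood F test) was run over all genes except the 18 of the gate, with the mouse as a block where gated and other cells of the same mice were compared and without one between genotypes. p-values were adjusted by Benjamini-Hochberg over all genes tested and called under 0.05. The SE of a log2 fold change is its size divided by the square root of F. Controls differed in line and treatment, so p-values measure the spread between these 7 mice. Shares were compared by an exact permutation test over 21 splits of the mice (scipy 1.17.1). DESeq2 1.42.0, other scaling, no filter, thinning to 50000 reads, other limits, first plates and each mouse left out were alternatives. Scripts were tested on simulated data. Named were the markers, genes the study discusses, up to 6 genes a list and, per comparison, the 5 largest called changes in each direction among genes that averaged log2 CPM 3 or more and had all mice on one side, without predicted genes. Strand use in counting is not stated, and *Ccnd1*, *Mest*, *S100a4*, *Ramp2*, *Adam15*, *Timp3*, *Prss23*, *Txnip*, *Selenop* and *Ccn2* share 15.4–51.7% of their exon bases with another gene, so their counts are uncertain to that extent. A gene result that is withheld is not reported here.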

Additional observations from a re-analysis of the deposited data

Results flagged for a closer look

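In groups of 5 mutant mice, 6 of 41 values tested (14.6%) had 1 mouse far from the others by Dixon's limit of 0.71, where chance gives about 1 in 20. Mutant 1 had a median *Ptx3* of 1022 CPM in its gated cells, against 578–700 CPM in the others. Mutant 5 had a median of 499198 reads per gated cell, against 314878–356391. The same mouse was low for *Nrp2* (1061 CPM, others 1490–1644), *Adam17* (118 CPM, others 135–140) and *Nfkbie* (141 CPM, others 278–331). Mutant 3 was high for *Grin1os* (92.1 CPM, others 18.1–31.6).

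The change from matched to gated cells differed between genotypes, by the test of the difference in edgeR, for 7 named genes. The log2 fold change in mutant minus that in control mice was 6.56 for *L1cam*, 3.12 for *Cd34*, -1.78 for *Efna1*, -1.56 for *Fgl2*, -1.54 for *Gpm6a*, -1.09 for *Selenop* and -0.99 for *Ltbp4*. Only *L1cam* kept its call without each mouse in turn. Mutants 1–4 were on another plate series than the controls, and its part in these differences was not tested.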

How the results depend on the processing

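Of 5591 log2 fold changes of named genes under alternatives, 16 turned sign, and 0 of these belonged to a gene called in that comparison. Gated against matched in mutant mice, *Ccl7* was at 0.013 with the stricter LEC sum and between -1.25 and 0.015 without 1 mouse. Against all *Ptx3*-low LECs, *Ccl7* was at 0.15 and *Adam8* at 0.19 with that sum, and without 1 mouse they lay between -1.25 and 0.084 and between -0.87 and 0.45. Mutant against control, *Ccl7* was at -0.060 after thinning, -0.011 with the replicate block, -0.98 with the plate series as a block and between -0.62 and 5.70 without 1 mouse, and *Cd200* between -0.80 and 0.060. In control mice, gated against matched, *Adam17*, *Nrp2*, *Ackr2* and *Ccl2* turned with the control left out and lay between -0.89 and 0.35, -0.76 and 1.09, -1.23 and 1.54, and -3.91 and 9.13.

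Gated against matched cells of mutant mice gave 284 calls, 1256 with DESeq2 and 180 when the LEC sum had to exceed the BEC sum 5 times, and 101–416 without 1 mouse. In control mice the 9 calls became 1454 with DESeq2 (555 higher, 899 lower), 14 without a filter, 17 after thinning, 4 with the stricter LEC sum, 5 with first plates only and 1–715 without 1 mouse. The 8 differences between genotypes became 1020, 13, 4, 3 and 3 in the same order, 4 with *Ptx3* of at least 200 CPM, and 1–485 without 1 mouse. Against all *Ptx3*-low LECs the 371 calls became 1666 with DESeq2, 147 with the stricter LEC sum and 28–608 without 1 mouse. Against *Slc2a1*-high cells the 0 calls became 23 with DESeq2 and 3 after thinning, and stayed at 0–0 without 1 mouse. Mutant against control gave 397 calls, 2163 with DESeq2, 253 with sex as a covariate and 56–2542 without 1 mouse. It gave 49 with 10 cells per mouse, an alternative chosen after seeing the data, and 20 with the plate series as a block. The share differed by 3.81–16.1 points without 1 mouse. Where leaving out a control left 1, that mouse was assumed to vary like the others. The causes were not tested. Control 1 had only 10 gated cells, which limits every control value.

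Same-numbered mutant and control mice shared only a number: the correlations of their deviations were -0.0054 and -0.024 in 2 pairs. With a replicate block on that number the mutant against control comparison gave 54 calls. With no replicate block for the mouse, the other comparisons gave 190 calls (mutant, matched), 35 (control, matched), 10 (difference), 246 (all *Ptx3*-low) and 0 (*Slc2a1*-high).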
